A study of Homo sapiens with 48 samples.

Results

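The genes described are 10 members of the dual-specificity phosphatase (DUSP) family that restrain MAP kinases: DUSP1, DUSP2, DUSP4, DUSP5, DUSP6, DUSP7, DUSP8, DUSP10, DUSP14 and DUSP16. They were taken by symbol from the 58870 genes listed in the deposited read counts of 48 RNA-seq samples. Each of the 10 passed the filter on low counts in each of the 4 experiments, so every member entered every test. By Ensembl identifier and GENCODE 29 position on GRCh38, DUSP1 is ENSG00000120129.6 on chromosome 5 (172768090 to 172771195), DUSP4 is ENSG00000120875.9 on chromosome 8 (29333064 to 29350668) and DUSP6 is ENSG00000139318.8 on chromosome 12 (89347232 to 89353271), all on the minus strand. DUSP2 lies on chromosome 2 (96143166 to 96145440), DUSP7 on 3 (52048919 to 52056550), DUSP8 on 11 (1554044 to 1571920), DUSP10 on 1 (221701424 to 221742176) and DUSP16 on 12 (12474210 to 12562383), also on the minus strand, and DUSP5 lies on 10 (110497838 to 110511544) and DUSP14 on 17 (37489831 to 37513501), on the plus strand. The values are counts over all annotated exons of each gene.

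The samples came from 3 uveal melanoma cell lines, 92-1, MEL202 and MP41, all labelled WT for genotype. Each line received DMSO as the negative control or FHT-1015, a dual inhibitor of SMARCA4 and SMARCA2, the ATPases that drive BAF chromatin remodelling complexes, for 4 or 24 h. The 92-1 line was also given the protein kinase C inhibitor IDE196 for the same times, beside a separate set of DMSO samples. There were 3 samples, labelled as biological replicates, in each of 16 groups, and the doses are not given in the sources used here. A line, its drug and its DMSO samples at both times form 1 experiment of 12 samples. The study asks how inhibiting BAF remodelling changes gene expression in these cancers, with protein kinase C inhibition beside it in 92-1.

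MAP kinases are switched on by phosphorylation of a threonine and a tyrosine in their activation loop, and the MAP kinase phosphatases of the DUSP family remove both phosphates. The nuclear enzymes DUSP1, DUSP2, DUSP4 and DUSP5 and the cytoplasmic enzymes DUSP6 and DUSP7 act on ERK to different degrees, whereas DUSP8, DUSP10 and DUSP16 prefer JNK and p38. Many of these genes are themselves switched on by ERK signalling and close a negative feedback loop. In uveal melanoma, activating mutations of the G proteins GNAQ and GNA11 are the usual driver, and they feed the ERK pathway through phospholipase C and protein kinase C.

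The depth, as reads assigned to genes, was 11394088 to 32317711 with a median of 19996476, and 17592 to 27150 genes had a read. The fewest were in FHT-1015 replicate 2 of MEL202 at 4 h, with at least 20023 in each of the 47 others. The biological coefficient of variation was 0.117 and 0.112 in the FHT-1015 and IDE196 experiments of 92-1, 0.294 in MEL202 and 0.217 in MP41, so a change of a given size was less often detectable in MEL202 and MP41. The 7 melanocyte markers PMEL, MLANA, TYR, DCT, TYRP1, MITF and SOX10 summed to between 7880 and 23100 CPM (counts scaled to a common library size) in DMSO. Markers of epithelium, leukocytes, endothelium and fibroblasts summed to at most 18.5 CPM in DMSO. The fibroblast sum in MEL202 was 5.18 to 6.56 CPM in DMSO at 24 h and 29.2 to 38.5 CPM with FHT-1015, and the epithelium sum reached 25 CPM with IDE196 at 24 h. With FHT-1015 for 24 h the melanocyte sum was 2750 to 5930 CPM, and with IDE196 for 24 h it was 18500 to 20900 CPM. The part that these shifts had in the DUSP results was not tested. In bulk RNA, fewer cells of a type and less RNA per cell cannot be told apart.

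The levels in DMSO were compared per kilobase of exons, which allows genes of different length to be ranked. CPM here use library sizes scaled by the trimmed mean of M values over all 48 samples. DUSP4, a nuclear phosphatase for ERK, had the highest level in 92-1 and MEL202. In the DMSO set of the FHT-1015 experiment of 92-1 its 6 samples ran from 57.4 to 81.7 CPM per kb, with a median of 66, and the next member, DUSP14, had a median of 14.8 (13.8 to 16.2). In MEL202 the DUSP4 median was 44.4 CPM per kb (33.9 to 68.5), above that of DUSP6 at 20.4 (12.6 to 24.8). The ranges of DUSP4 and of the next member did not overlap in either line. In MP41 the order was different: DUSP14 had a median of 24.4 CPM per kb (19.4 to 30.1), DUSP6 of 22.3 (14.2 to 27.1), DUSP16 of 21.1 (16.8 to 24) and DUSP4 of 16.9 (15.5 to 23.8). These 4 genes had overlapping ranges in the unstranded column, so their order there is within the spread of the samples. That column leaves out reads that overlap an antisense gene, which for DUSP6 are many. With the sum of both stranded columns DUSP6 had a median of 34.2 CPM per kb in MP41 (30.8 to 40.7), above the range of DUSP14, and the place of DUSP6 thus depends on the column. By that sum it was at 29.9 in MEL202 (25.4 to 32.4), still below DUSP4, and at 8.54 in 92-1 (8.34 to 9.97), between DUSP2 and DUSP1. The remaining 6 genes had medians from 3.75 (DUSP5) to 11.4 (DUSP2) CPM per kb in MP41. In the first DMSO set of 92-1, DUSP16 followed at 10.5, DUSP2 at 9.13 and DUSP1 at 7.67, and DUSP7, DUSP6, DUSP8 and DUSP5 lay between 5.79 and 3.56. There the ranges of DUSP16, DUSP2 and DUSP1 overlapped in that order, as did those of DUSP7, DUSP6 and DUSP8. DUSP1 (6.58 to 8.44) also overlapped DUSP6 (5.04 to 6.86), so these runs of genes were not separate. DUSP14 and DUSP16, DUSP1 and DUSP7, DUSP8 and DUSP5, and DUSP5 and DUSP10 were apart.

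**Figure D1:**
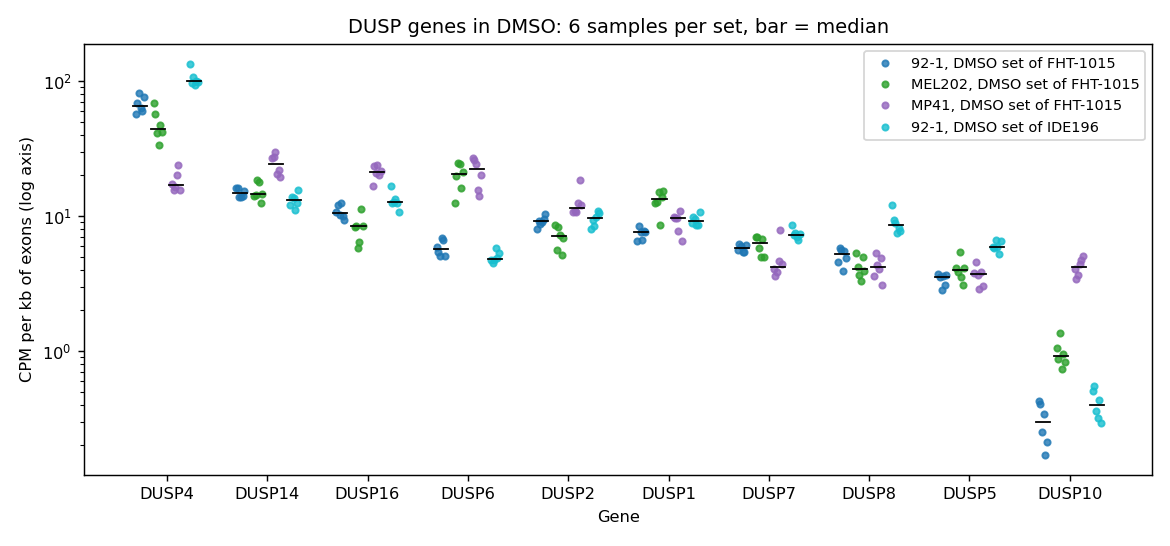
Level of each DUSP gene in DMSO, in CPM per kb of exons on a log axis, for the 6 DMSO samples (4 and 24 h) of each experiment. Points are samples and bars are medians. DUSP4 stands above the other members in 92-1 and MEL202, with medians of 66, 44.4 and, in the DMSO set of IDE196, 99.6, and DUSP10 is lowest in 92-1 and MEL202.

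DUSP10, a phosphatase for JNK and p38, was the lowest member in 92-1 and MEL202 and differed most of the members between MP41 and each of the other lines. Its 6 DMSO samples ran from 0.491 to 1.25 CPM in 92-1, from 2.14 to 3.94 CPM in MEL202 and from 10 to 14.8 CPM in MP41, so no line overlapped another. Groups were tested with edgeR's quasi-likelihood test on the counts, with p-values adjusted by Benjamini-Hochberg over all genes tested, and a gene was called at an adjusted p under 0.05. On the log2 scale DUSP10 was higher in MP41 than in 92-1 by 3.83 ± 0.23 (SE; edgeR adjusted p = 1.18e-15) and higher than in MEL202 by 2.12 ± 0.2 (edgeR adjusted p = 8.71e-11). DUSP4 ran the other way, lower in MP41 than in 92-1 by a log2 difference of -1.88 ± 0.13 (edgeR adjusted p = 6.78e-14). DUSP6 was higher in both other lines than in 92-1, by 1.8 ± 0.16 in MEL202 (edgeR adjusted p = 5.98e-11) and 1.87 ± 0.16 in MP41 (edgeR adjusted p = 1.39e-11). With the sum of both stranded columns these DUSP6 differences were 1.73 and 1.98, and MP41 against MEL202, which did not pass in the unstranded column (0.07, edgeR adjusted p = 0.716), just passed with the sum (0.25, edgeR adjusted p = 0.0499). DUSP14 was higher in MP41 than in 92-1 by 0.72 ± 0.1 (edgeR adjusted p = 1.78e-07) and than in MEL202 by 0.65 ± 0.1 (edgeR adjusted p = 1.46e-06). DUSP16 was also highest in MP41, by 0.99 ± 0.13 over 92-1 (edgeR adjusted p = 3.83e-08) and 1.39 ± 0.13 over MEL202 (edgeR adjusted p = 4.93e-11). DUSP5 and DUSP8 did not pass the test between any pair of lines.

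Between MEL202 and 92-1, 6 of the 10 members passed the test, where 52.9 percent of all genes tested did. Between MP41 and 92-1 it was 8, with 65 percent of all genes, and between MP41 and MEL202 it was 7, with 56 percent. These shares are those of whole transcriptomes that differ between lines, and line and library set cannot be told apart. Within 92-1, the DMSO set of IDE196 was higher than that of FHT-1015 for 6 members and lower for none, where 60.4 percent of all genes differed and 29.3 percent were higher. The largest of these differences was that of DUSP5, at 0.85 ± 0.1 on the log2 scale (edgeR adjusted p = 8.07e-08). Each drug was therefore compared with its own DMSO only. Calls that hung on the processing were DUSP2 between MEL202 and 92-1 (-0.35, edgeR adjusted p = 0.0335), DUSP1 between MP41 and 92-1 (0.3, edgeR adjusted p = 0.0492) and DUSP7 between the same lines (-0.29, edgeR adjusted p = 0.0442). They failed in 6, 24 and 9 of the 36 fits that each left out 1 library (leave-one-out fits).

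The DNA before the start of these genes was searched for 5 short elements bound by factors of the MAP kinase and cyclic AMP pathways, on both strands, in the 250 bases before each RefSeq start. The elements were the cyclic AMP response element TGACGTCA, the AP-1 element TGANTCA, the E-box CACGTG, the ETS core CGGAAG and the CArG box. Of 35116 promoter windows of that length, 1.65 percent held the first, 6.57 percent the AP-1 element, 6.34 percent the E-box, 16.5 percent the ETS core and 1.16 percent the CArG box. The RefSeq promoter table used here held 8 of the 10 members, and DUSP4 and DUSP5 were not analysed here. The 3 windows that held a match and no annotated exon base of their gene are shown 5′ to 3′ on the gene's strand, with the matches in capitals. DUSP1 (GRCh38.p14, chr5:172771196-172771445, minus strand) holds a cyclic AMP response element and an E-box, DUSP2 (chr2:96145441-96145690, minus strand) an E-box, and DUSP8 (chr11:1572272-1572521, minus strand) an ETS core and 2 cyclic AMP response elements.
DUSP1: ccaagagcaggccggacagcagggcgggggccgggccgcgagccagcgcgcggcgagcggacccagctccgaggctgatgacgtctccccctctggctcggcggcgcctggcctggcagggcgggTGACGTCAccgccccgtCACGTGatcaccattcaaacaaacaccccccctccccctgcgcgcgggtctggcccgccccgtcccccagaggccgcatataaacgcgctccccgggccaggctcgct
DUSP2: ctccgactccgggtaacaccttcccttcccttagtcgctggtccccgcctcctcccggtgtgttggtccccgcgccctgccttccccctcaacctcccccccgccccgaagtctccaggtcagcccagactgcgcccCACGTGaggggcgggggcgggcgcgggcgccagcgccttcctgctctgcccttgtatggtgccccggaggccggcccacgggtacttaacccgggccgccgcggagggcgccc
DUSP8: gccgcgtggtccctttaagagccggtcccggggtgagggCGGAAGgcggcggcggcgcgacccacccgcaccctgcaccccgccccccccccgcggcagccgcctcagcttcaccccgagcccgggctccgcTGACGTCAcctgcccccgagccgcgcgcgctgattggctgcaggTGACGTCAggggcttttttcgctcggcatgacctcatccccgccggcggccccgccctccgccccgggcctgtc
The windows of DUSP7 (chr3:52056572-52056821) and DUSP16 (chr12:12562864-12563113), both on the minus strand, held none of the 5 patterns. The 2 windows of DUSP10 (chr1:221742090-221742339 and chr1:221736901-221737150, minus strand) and that of DUSP14 (chr17:37489641-37489890, plus strand) held none either. The DUSP6 window (chr12:89352502-89352751, minus strand) held an ETS core on the opposite strand, 62 to 57 bases before the start, and its letters are not printed because all 250 bases lie in an annotated exon. A match is a run of letters in this window, and binding was not measured in these samples.

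Each drug was then compared with its own DMSO at each time, as a log2 fold change, given below with its standard error. Statements that groups were apart or did not overlap refer to 3 against 3 samples and are made for some comparisons only. How many of all genes were apart in this way was not counted. Such statements describe the samples and do not stand in for the test. With FHT-1015 in 92-1, 4 members fell and 0 rose at 4 h, where 29.5 percent of all genes passed the test (12.9 percent higher and 16.7 percent lower). At 24 h 5 rose and 5 fell, where 60.6 percent of all genes passed (29.2 and 31.4 percent). In MEL202, 1 member fell at 4 h, where 0.679 percent of all genes passed (0.157 higher and 0.522 lower), and 1 rose and 3 fell at 24 h, where 18.8 percent did (8.69 and 10.1). In MP41, 1 fell at 4 h, where 0.225 percent of all genes passed (0.0708 higher and 0.154 lower), and 3 rose and 5 fell at 24 h, where 36.1 percent did (17.4 and 18.7). With IDE196 in 92-1, 2 rose and 6 fell at 4 h, where 16.2 percent of all genes passed (6.89 higher and 9.3 lower), and again at 24 h, where 58.1 percent did (28.7 and 29.4). The median log2 fold change of the 10 members with IDE196 was -0.96 at 4 h and -1.12 at 24 h, against 0.01 and 0.03 over all genes tested. With FHT-1015 at 24 h the members' median was -0.16 in 92-1, 0.01 in MEL202 and -0.59 in MP41, against 0, -0.01 and 0.07 over all genes. The 4 h shares of all genes in 2 lines rested on few calls that moved with the fit. In MP41 it was 35 genes, 7 to 141 without 1 library, 146 with DESeq2 and 346 when the 6 compared samples were fitted alone. In MEL202 it was 108 genes, 28 to 137 without 1 library, 310 with DESeq2 and 0 with edgeR on the compared samples alone (589 at an unadjusted p under 0.05). At 24 h the samples alone gave 6256 genes in MEL202, against 2984, and 3352 in MP41, against 5617. With FHT-1015 at 4 h the members called were all falls with edgeR on each experiment of 12 samples, whereas the DUSP14 rise in MP41 passed with DESeq2 and with the compared samples alone. At 24 h rises and falls were equal in number in 92-1 with FHT-1015, and falls outnumbered rises in MEL202 and MP41 and, at both times, with IDE196.

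**Figure D2:**
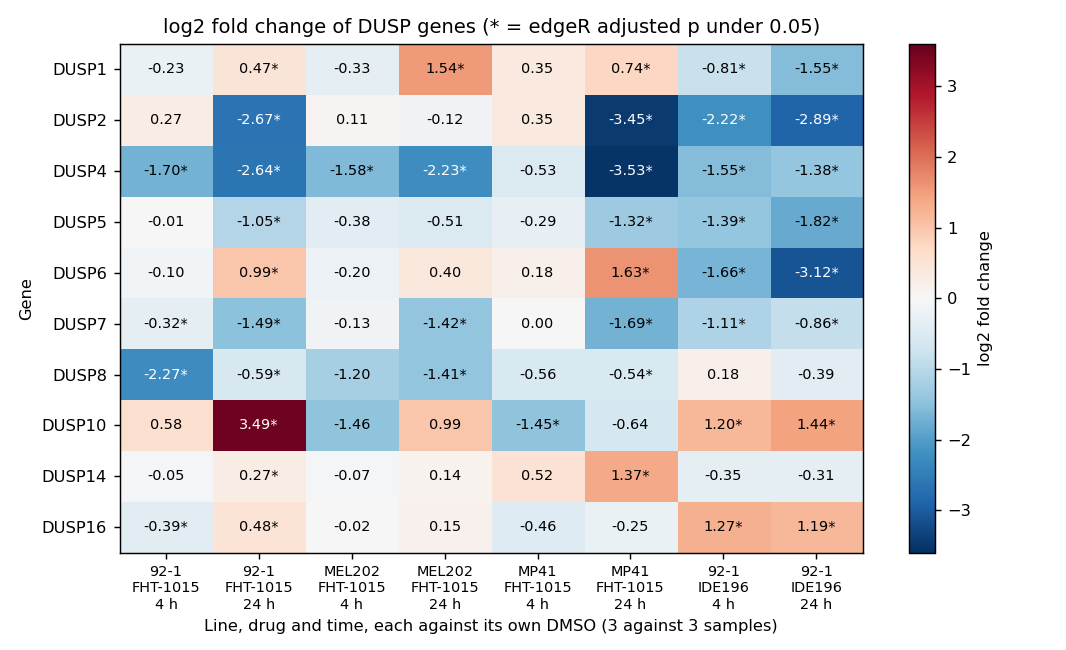
Log2 fold change of the 10 DUSP genes (rows) for each line, drug and time against its own DMSO (columns), 3 against 3 samples, blue for lower and red for higher. Stars mark an edgeR adjusted p under 0.05. DUSP4 is blue throughout, from -0.53 to -3.53, and DUSP6 turns from 0.99 with FHT-1015 to -3.12 with IDE196 in 92-1 at 24 h.

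Among the nuclear phosphatases, DUSP4 fell with both drugs. In 92-1 with FHT-1015 its levels were 417, 501 and 593 CPM in DMSO at 4 h and 151, 153 and 168 CPM with the drug. At 24 h they were 457, 435 and 553 CPM in DMSO and 70.2, 78.8 and 85.8 CPM with the drug. Every treated sample lay below every DMSO sample at both times, and the mean was 16.3 percent of the DMSO mean at 24 h. The log2 fold change was -1.7 ± 0.13 at 4 h (edgeR adjusted p = 1.04e-07) and -2.64 ± 0.13 at 24 h (edgeR adjusted p = 2.13e-10), and the fall deepened between the times by -0.94 ± 0.18 (edgeR adjusted p = 0.000472). At 4 h DUSP1, DUSP2, DUSP5 and DUSP6 did not pass the test in this line.

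In MEL202, DUSP4 was at 497, 413 and 301 CPM in DMSO and 127, 168 and 111 CPM with FHT-1015 at 4 h, and at 246, 341 and 303 CPM against 60.6, 59.6 and 66.3 CPM at 24 h. The groups did not overlap at either time. The log2 fold change was -1.58 ± 0.24 (edgeR adjusted p = 0.00677) and then -2.23 ± 0.24 (edgeR adjusted p = 3.73e-05). The 4 h call was lost when the 6 compared samples were fitted alone (-1.56, edgeR adjusted p = 0.309) and without FHT-1015 replicate 1 (0.0559) or replicate 3 (0.0533) of that time. Without replicate 2, the library with the fewest genes, it was -1.79 (edgeR adjusted p = 0.00399).

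In MP41, DUSP4 was at 126, 113 and 120 CPM in DMSO and 90.7, 81.3 and 76.3 CPM with FHT-1015 at 4 h, which did not pass the test (-0.53 ± 0.17, edgeR adjusted p = 0.395) although the groups did not overlap. Fitted alone, those 6 samples gave the same log2 value and passed (edgeR adjusted p = 0.0152). By 24 h it was at 147, 173 and 114 CPM in DMSO and 12.2, 14.1 and 9.68 CPM with the drug, 8.28 percent of the DMSO mean. This fall of -3.53 ± 0.19 (edgeR adjusted p = 9.27e-08) was the largest of any member in any of the 8 comparisons, and it deepened from 4 to 24 h by -3 ± 0.24 (edgeR adjusted p = 1.07e-05). A test of the DUSP4 response across lines passed at 4 h (edgeR adjusted p = 0.0128, or 0.0539 without MP41 DMSO replicate 2 of 4 h), where 1.38 percent of all genes passed, and at 24 h (edgeR adjusted p = 0.00106), where 12 percent did.

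With IDE196, DUSP4 fell at 4 h and stood at a similar level at 24 h. Its levels were 976, 707 and 782 CPM in DMSO and 277, 300 and 269 CPM with IDE196 at 4 h, and 677, 735 and 712 CPM against 283, 267 and 291 CPM at 24 h. The log2 fold change was -1.55 ± 0.1 (edgeR adjusted p = 2.41e-08) and -1.38 ± 0.1 (edgeR adjusted p = 4.87e-09). The groups did not overlap, and the change of the effect between the times was 0.16, with a 95% interval from -0.14 to 0.47.

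**Figure D3:**
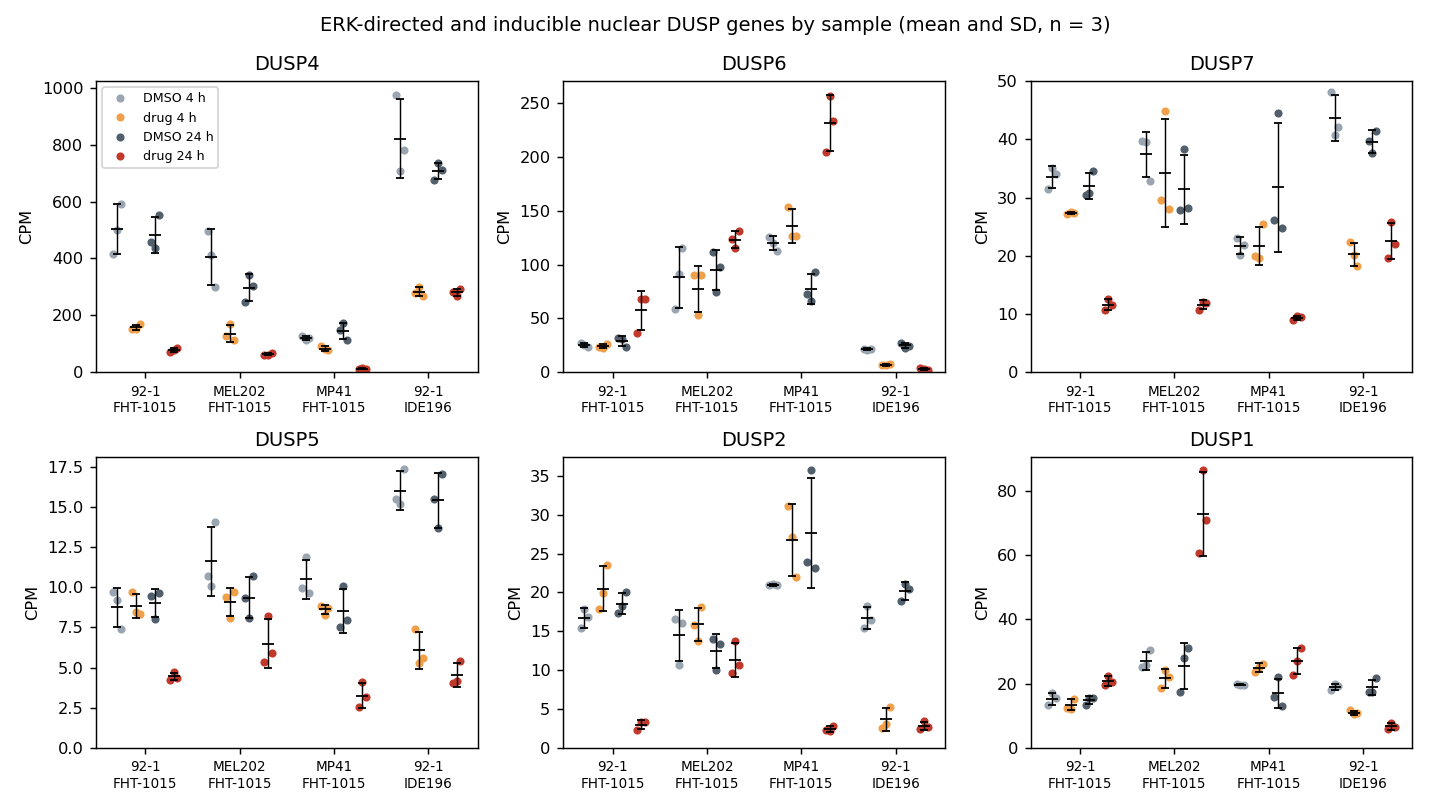
Levels in CPM of DUSP4, DUSP6, DUSP7, DUSP5, DUSP2 and DUSP1 in every sample, by experiment, for DMSO and drug at 4 and 24 h. Points are samples, with mean and SD (n = 3). DUSP6 with FHT-1015 at 24 h reaches 205 to 257 CPM in MP41, above its DMSO samples, and falls to 2.14 to 3.59 CPM with IDE196 in 92-1.

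DUSP2, an inducible nuclear phosphatase best known from immune cells, fell late with FHT-1015 in 92-1 and MP41. In 92-1 at 24 h it was at 17.4, 18.3 and 20 CPM in DMSO and 2.3, 3.26 and 3.29 CPM with FHT-1015 (-2.67 ± 0.16, edgeR adjusted p = 1.81e-09). In MP41 it was at 23.9, 35.8 and 23.2 CPM in DMSO and 2.32, 2.1 and 2.79 CPM with the drug (-3.45 ± 0.21, edgeR adjusted p = 1.6e-07). No treated sample came near a DMSO sample in these lines. In MEL202 it was at 14, 9.95 and 13.4 CPM in DMSO and 9.61, 13.7 and 10.6 CPM with FHT-1015, and these ranges overlapped. The MEL202 value was -0.12, with a 95% interval from -0.65 to 0.41, and a test of unequal response across lines passed (edgeR adjusted p = 2.06e-09). At 4 h the FHT-1015 values of DUSP2 were 0.27, 0.11 and 0.35 in 92-1, MEL202 and MP41, none of which passed the test. The treated samples then lay above every DMSO sample in MP41 and, narrowly, in 92-1, and overlapped them in MEL202.

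With IDE196 the fall of DUSP2 came by 4 h. Its levels were 15.4, 18.2 and 16.4 CPM in DMSO against 2.6, 3.07 and 5.29 CPM with IDE196 at 4 h, and 18.9, 21.1 and 20.5 CPM against 2.38, 3.42 and 2.68 CPM at 24 h. The log2 fold change was -2.22 ± 0.2 (edgeR adjusted p = 6.12e-07) and then -2.89 ± 0.2 (edgeR adjusted p = 2.65e-09). The groups were fully apart at both times. By 24 h the drugs gave DUSP2 values that did not pass the test of their difference (0.21, 95% interval from -0.37 to 0.79), whereas at 4 h they differed by 2.48 ± 0.25 (edgeR adjusted p = 2.18e-08).

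DUSP5, a nuclear phosphatase that acts on ERK and is induced by it, followed a similar course at lower levels. With FHT-1015 at 24 h it was at 9.45, 8.04 and 9.65 CPM in DMSO and 4.25, 4.72 and 4.37 CPM with the drug in 92-1 (-1.05 ± 0.15, edgeR adjusted p = 2.2e-05). In MP41 it was at 7.53, 10.1 and 7.95 CPM against 2.54, 4.08 and 3.14 CPM (-1.32 ± 0.2, edgeR adjusted p = 0.000213). Both were falls with no overlap. In MEL202 the value was -0.51 ± 0.24 (edgeR adjusted p = 0.169), and a difference among the lines did not pass the test (edgeR adjusted p = 0.0861). At 4 h the FHT-1015 values of DUSP5 were -0.01, -0.38 and -0.29 in 92-1, MEL202 and MP41, none of which passed. The treated samples then lay below every DMSO sample in MEL202 and MP41 and overlapped them in 92-1. With IDE196 DUSP5 fell at 4 h, from 15.5, 15.2 and 17.4 CPM to 7.41, 5.28 and 5.58 CPM (-1.39 ± 0.15, edgeR adjusted p = 7.17e-06), and at 24 h by -1.82 ± 0.16 (edgeR adjusted p = 3.85e-08).

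DUSP1, an immediate-early nuclear phosphatase for p38, JNK and ERK, moved in opposite directions under the 2 drugs. With FHT-1015 at 24 h it was higher in each line, and 5.04 percent of the genes tested in all 3 lines were called higher in each of them. In MEL202 it was at 17.3, 28 and 31.1 CPM in DMSO and 60.8, 86.6 and 70.8 CPM with the drug (1.54 ± 0.25, edgeR adjusted p = 0.000743). In 92-1 it was at 13.3, 15.6 and 15.5 CPM against 19.6, 22.5 and 20.5 CPM (0.47 ± 0.13, edgeR adjusted p = 0.0057). In MP41 it was at 15.7, 22 and 13.1 CPM against 22.8, 27.1 and 31.1 CPM (0.74 ± 0.17, edgeR adjusted p = 0.00431). The groups were apart in each line, by the least in MP41, where the 6 compared samples fitted alone gave 0.68 and did not pass (edgeR adjusted p = 0.0758).

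The DUSP1 rise at 24 h was unequal across lines (edgeR adjusted p = 0.0161), a call lost without MEL202 DMSO replicate 1 (0.0768) or FHT-1015 replicate 2 (0.0799) of 24 h. At 4 h no line passed the test, with values of -0.23 (92-1), -0.33 (MEL202) and 0.35 (MP41). The treated samples then lay below every DMSO sample in MEL202, above every one in MP41, and overlapped them in 92-1. With IDE196 DUSP1 fell from 17.9, 19.8 and 19.3 CPM to 11.6, 10.4 and 10.7 CPM at 4 h (-0.81 ± 0.13, edgeR adjusted p = 0.000273). At 24 h it fell from 17.3, 17.4 and 21.6 CPM to 5.87, 7.78 and 6.31 CPM (-1.55 ± 0.14, edgeR adjusted p = 3.53e-08), further than at 4 h by -0.74 ± 0.19 (edgeR adjusted p = 0.00585).

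DUSP6, the cytoplasmic ERK phosphatase whose transcript is widely read as a gauge of ERK activity, showed the widest gap between the drugs. The gene shares 1875 exon bases with the antisense gene AC024909.2, and the deposited unstranded column leaves out reads that fall on both. It held 40 to 83.1 percent of the DUSP6 reads that the sum of both stranded columns held, against at least 97.1 percent for each other member. Its main fold changes are therefore given with that sum as well. Each strand held close to the same number of reads in every library (49.7 to 50.1 percent on the first), so reads from DUSP6 and from its antisense neighbour cannot be told apart, and how many of the left-out reads belong to DUSP6 was not tested.

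With FHT-1015 at 24 h DUSP6 was at 31.8, 30.6 and 23.3 CPM in DMSO and 36.3, 68.2 and 68 CPM with the drug in 92-1 (0.99 ± 0.18, edgeR adjusted p = 0.000259). In MP41 it was at 72.5, 66 and 93.4 CPM against 205, 257 and 234 CPM (1.63 ± 0.17, edgeR adjusted p = 1.03e-05). The groups did not overlap, although replicate 1 of 92-1 lay close to its controls. In MEL202 it was at 112, 74.8 and 97.7 CPM against 124, 115 and 131 CPM, which did not pass the test although the groups did not overlap (0.4 ± 0.27, edgeR adjusted p = 0.351). With the sum of both strands the 3 values were 1.02, 1.36 and 0.43. The difference among the lines passed (edgeR adjusted p = 0.0297) but failed in 8 of the 36 leave-one-out fits, 4 from MEL202 and 4 from MP41 at 24 h, with adjusted p from 0.0554 to 0.089. At 4 h DUSP6 did not pass in any line, with values of -0.1 (92-1), -0.2 (MEL202) and 0.18 (MP41), or -0.21, -0.16 and 0.13 with the sum of both strands.

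With IDE196 DUSP6 fell from 21.9, 20.9 and 21.7 CPM to 6.13, 6.73 and 7.65 CPM at 4 h (-1.66 ± 0.14, edgeR adjusted p = 4.03e-07). At 24 h it fell from 26.8, 22.7 and 24.6 CPM to 3.59, 2.99 and 2.14 CPM (-3.12 ± 0.16, edgeR adjusted p = 5.23e-11), which was 11.8 percent of the DMSO mean. The groups were far apart, and the fall deepened by -1.45 ± 0.21 between the times (edgeR adjusted p = 5.88e-05). With the sum of both strands the values were -1.68 and -2.86 and the deepening -1.18. The DUSP6 level in MP41 also moved in DMSO alone, from 126, 120 and 113 CPM at 4 h to 72.5, 66 and 93.4 CPM at 24 h (-0.7 ± 0.17, edgeR adjusted p = 0.0475), so its rise there at 24 h was measured from a lower control. That DMSO call did not hold with the sum of both strands (-0.43, edgeR adjusted p = 0.0822), nor in 11 of the 12 leave-one-out fits, the exception being DMSO replicate 3 of 24 h.

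DUSP7, another cytoplasmic ERK phosphatase, fell with FHT-1015 in each line at 24 h. With FHT-1015 at 24 h it was at 30.5, 30.8 and 34.6 CPM in DMSO and 10.7, 12.5 and 11.6 CPM with the drug in 92-1 (-1.49 ± 0.1, edgeR adjusted p = 6.29e-09). In MEL202 it was at 27.9, 38.3 and 28.2 CPM against 10.7, 12.1 and 11.9 CPM (-1.42 ± 0.23, edgeR adjusted p = 0.000867), and in MP41 at 26.1, 44.5 and 24.7 CPM against 8.96, 9.6 and 9.44 CPM (-1.69 ± 0.2, edgeR adjusted p = 2.48e-05). The treated samples of the 3 lines fell within a narrow band, well below every DMSO sample. A difference among the lines did not pass the test (edgeR adjusted p = 0.59). DUSP4, DUSP7 and DUSP8 were the 3 members called lower in each line at 24 h, as were 7.65 percent of the genes tested in all of them. At 4 h 0 members were called in each line, where 0.0366 percent of genes were higher and 0.0512 percent lower in all 3.

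The fall of DUSP7 was mostly late with FHT-1015. At 4 h it was -0.32 ± 0.09 in 92-1 (edgeR adjusted p = 0.0191), and MEL202 and MP41 stood at -0.13 and 0 without passing. The 92-1 call at 4 h was lost with no filter on low counts (edgeR adjusted p = 0.112) and without DMSO replicate 2 (0.0804), DMSO replicate 3 (0.0617) or FHT-1015 replicate 2 (0.0528) of that time. With IDE196 the fall was early. DUSP7 went from 48.1, 40.8 and 42.2 CPM to 22.3, 20.1 and 18.3 CPM at 4 h (-1.11 ± 0.11, edgeR adjusted p = 2.76e-06). By 24 h it was at 39.7, 37.6 and 41.5 CPM against 19.7, 25.8 and 22.1 CPM (-0.86 ± 0.11, edgeR adjusted p = 4.61e-06).

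Of the phosphatases directed at JNK and p38, DUSP8 fell at 4 h with FHT-1015 in 92-1 and was nearer to DMSO at 24 h. It was at 21.2, 26.7 and 25.8 CPM in DMSO and 3.47, 5.6 and 6.72 CPM with the drug at 4 h (-2.27 ± 0.2, edgeR adjusted p = 5.35e-07), the largest change of any member at that time in the line. Later, at 24 h, it was at 18, 25.4 and 22.7 CPM against 14.6, 15.9 and 14.2 CPM (-0.59 ± 0.19, edgeR adjusted p = 0.0124). The groups did not overlap at either time, and the effect was smaller at 24 h by 1.68 ± 0.27 (edgeR adjusted p = 0.000128). The 24 h call was lost without DMSO replicate 2 of that time (-0.48, edgeR adjusted p = 0.0569). Its 250-base window is the one with 2 cyclic AMP response elements, and whether these have a part in the response was not tested.

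In MEL202 the DUSP8 levels at 4 h were 24.5, 19.3 and 16.8 CPM in DMSO and 4.83, 15.2 and 6.29 CPM with FHT-1015. Replicate 2 of the treated group stood above the other 2, and it is the library with the fewest genes with a read. The value was -1.2 ± 0.36 (edgeR adjusted p = 0.217) with that library and -1.89 (edgeR adjusted p = 0.00438) without it, and with no filter on low counts it also passed (-1.22, edgeR adjusted p = 0.0129). At 24 h DUSP8 was at 15.3, 22.9 and 18.2 CPM against 6.82, 6.52 and 7.49 CPM (-1.41 ± 0.36, edgeR adjusted p = 0.0149), a fall with no overlap. That call was lost without DMSO replicate 2 (0.0517), FHT-1015 replicate 1 (0.0578) or FHT-1015 replicate 2 (0.0621) of 24 h.

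In MP41 at 4 h DUSP8 was at 16.5, 24.7 and 19.9 CPM in DMSO and 12.1, 15 and 14.2 CPM with FHT-1015, apart but without passing the test (-0.56 ± 0.2, edgeR adjusted p = 0.522). There DUSP8 was at 18.6, 22.4 and 14.2 CPM against 13.8, 11.4 and 10.9 CPM at 24 h (-0.54 ± 0.2, edgeR adjusted p = 0.0482). DMSO replicate 3 lay just above the highest treated sample, and the call failed in 7 of the 12 leave-one-out fits (up to an adjusted p of 0.155), those without DMSO replicate 3 of 4 h, DMSO replicate 1 or 2 of 24 h, or FHT-1015 replicate 2 or 3 of either time, and under 4 of the 6 other settings. With IDE196 DUSP8 stood at 0.18 at 4 h (95% interval from -0.15 to 0.51) and -0.39 at 24 h (edgeR adjusted p = 0.0501), which passed with no filter on low counts (0.00482) and with the 6 samples fitted alone (0.00551). A DUSP8 difference between the drugs was seen at 4 h, at -2.46 ± 0.27 (edgeR adjusted p = 1.17e-07), and did not pass at 24 h. The test of the DUSP8 response to FHT-1015 across lines at 4 h lay at the threshold (edgeR adjusted p = 0.0506). It passed with no filter (0.00212), with DESeq2 (0.0182), with the sum of both strands (0.0477), with the replicate block (0.0318) and in 11 of the 36 leave-one-out fits, whose adjusted p ran from 0.00207 to 0.204.

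**Figure D4:**
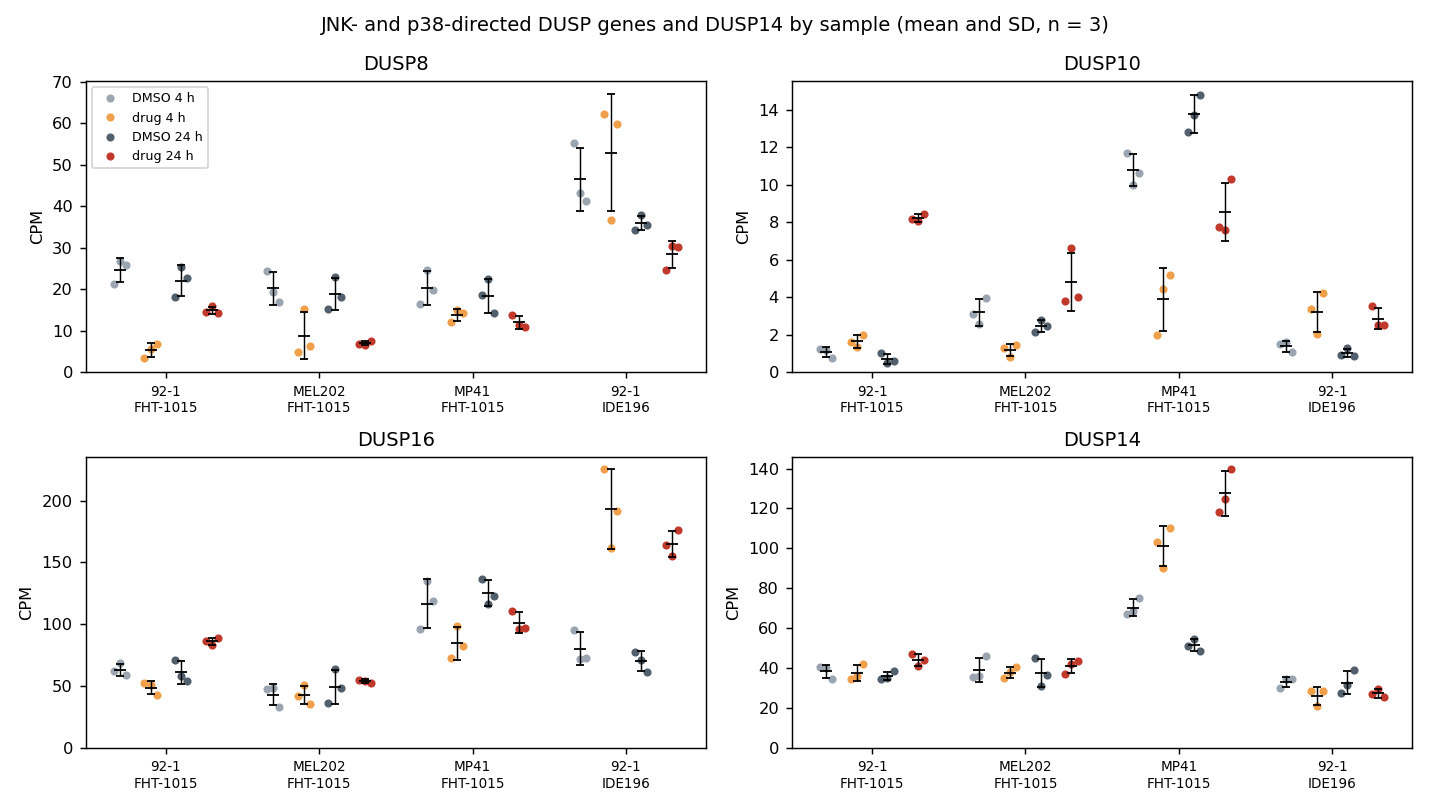
Levels in CPM of DUSP8, DUSP10, DUSP16 and DUSP14 in every sample, by experiment, for DMSO and drug at 4 and 24 h. Points are samples, with mean and SD (n = 3). DUSP10 with FHT-1015 at 24 h lies at 8.06 to 8.44 CPM in 92-1, above DMSO at 0.491 to 1 CPM, and at 7.58 to 10.3 CPM in MP41, below DMSO at 12.8 to 14.8 CPM.

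DUSP10 had the largest rise of any member and the widest range of values among the lines at 24 h. In 92-1 at 24 h it went from 1, 0.491 and 0.614 CPM in DMSO to 8.15, 8.06 and 8.44 CPM with FHT-1015, a mean 11.7-fold higher (3.49 ± 0.27, edgeR adjusted p = 2.84e-08). In MP41 it was at 12.8, 13.7 and 14.8 CPM in DMSO and 7.72, 7.58 and 10.3 CPM with the drug, which did not pass the test (-0.64 ± 0.25, edgeR adjusted p = 0.0632). In MEL202 it was at 2.14, 2.79 and 2.44 CPM against 3.79, 6.6 and 4 CPM (0.99 ± 0.34, edgeR adjusted p = 0.0539). The treated and DMSO samples were apart in each line, above DMSO in 92-1 and MEL202 and below it in MP41, and the response was unequal across lines (edgeR adjusted p = 6.18e-08). With the drug the levels in 92-1 and MP41 overlapped, after DMSO levels that did not. The MEL202 value passed the test with relative log expression normalisation (0.0489), with DESeq2 (0.0283) and with the compared samples fitted alone (edgeR adjusted p = 0.0179), and the MP41 value with DESeq2 (0.0447).

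At 4 h the same gene was lower with FHT-1015 in MP41, at 2, 4.43 and 5.19 CPM against 11.7, 10 and 10.6 CPM (-1.45 ± 0.26, edgeR adjusted p = 0.0403). Although the groups were well apart, the call failed in 10 of the 12 leave-one-out fits, each except those without DMSO replicate 2 or 3 of 24 h, with adjusted p of up to 0.195. In MEL202 DUSP10 was at 1.28, 0.789 and 1.45 CPM with the drug and 3.08, 2.54 and 3.94 CPM in DMSO (-1.46 ± 0.36, edgeR adjusted p = 0.0976), and DESeq2 passed it (0.0149). In 92-1 the value was 0.58 ± 0.28 (edgeR adjusted p = 0.133), and the DUSP10 response at 4 h was also unequal across lines (edgeR adjusted p = 0.00759, or 0.0508 without 92-1 DMSO replicate 3 of 4 h). The counts behind DUSP10 were small, from 8 to 370 reads per library. With IDE196 it rose from 1.48, 1.62 and 1.05 CPM to 3.35, 2.05 and 4.2 CPM at 4 h (1.2 ± 0.3, edgeR adjusted p = 0.0106), and the 24 h value was 1.44 ± 0.32 (edgeR adjusted p = 0.000843). The 4 h call was lost without DMSO replicate 6 (0.0551) or IDE196 replicate 3 (0.0643) of that time.

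DUSP16, which also prefers JNK and p38, rose with IDE196. It was at 95.4, 72.2 and 72.7 CPM in DMSO and 226, 162 and 192 CPM with IDE196 at 4 h (1.27 ± 0.13, edgeR adjusted p = 2.45e-06), and at 77.5, 71.2 and 61.3 CPM against 164, 155 and 176 CPM at 24 h (1.19 ± 0.13, edgeR adjusted p = 4.69e-07). Every treated sample lay above every DMSO sample at both times. With FHT-1015 in 92-1 it was lower at 4 h (-0.39 ± 0.11, edgeR adjusted p = 0.0112) and higher at 24 h (0.48 ± 0.11, edgeR adjusted p = 0.00105). Its levels were 62, 68.6 and 58.5 CPM in DMSO against 52.8, 51.1 and 42.4 CPM at 4 h, and 71.4, 58 and 53.8 CPM against 86.5, 83.5 and 89 CPM at 24 h, without overlap. The early fall was lost without DMSO replicate 2 of 4 h (edgeR adjusted p = 0.0626). In MEL202 and MP41 DUSP16 did not pass the test at either time, with values between -0.46 and 0.15. In MP41 at 24 h it was at 137, 116 and 123 CPM in DMSO and 111, 96.2 and 96.7 CPM with FHT-1015, lower without overlap. The groups overlapped at 4 h in MP41 and at both times in MEL202.

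DUSP14, a small atypical family member without the kinase-docking domain of the others, passed the test at 24 h in MP41 and, by a smaller value, in 92-1. In MP41 at 24 h it was at 51.2, 54.5 and 48.4 CPM in DMSO and 118, 125 and 140 CPM with FHT-1015 (1.37 ± 0.13, edgeR adjusted p = 3.72e-06), and at 4 h at 67.3, 68.4 and 75.3 CPM against 103, 90.3 and 110 CPM (0.52 ± 0.13, edgeR adjusted p = 0.154). The groups were apart at both times, and the 4 h value passed with DESeq2 (0.0157), with the compared samples fitted alone (edgeR adjusted p = 0.0152) and without DMSO replicate 2 of 24 h (0.0433). DUSP14 fell in DMSO alone between 4 and 24 h in MP41 (-0.53 ± 0.13, edgeR adjusted p = 0.0442), a call that failed in 11 of the 12 leave-one-out fits, all but the one without DMSO replicate 3 of 24 h. Of the other members only DUSP6 passed that DMSO comparison, in which 2.59 percent of all genes did (0.997 percent lower). That share was 403 genes, and it was 6835 without DMSO replicate 3 of 24 h and 14 to 170 without any other 1 of the 6 DMSO libraries. In the DMSO samples of the other 3 experiments no member passed with edgeR, where at most 0.344 percent of all genes did, and DESeq2 likewise passed 0. At an unadjusted p under 0.05, 1 member, DUSP8 in the IDE196 experiment of 92-1, stood apart (-0.36).

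In 92-1 the rise of DUSP14 with FHT-1015 at 24 h was small, from 34.5, 35.2 and 38.4 CPM to 47.2, 41 and 43.9 CPM (0.27 ± 0.11, edgeR adjusted p = 0.0383). It was lost with no filter on low counts (edgeR adjusted p = 0.113) and in 7 of the 12 leave-one-out fits, those without DMSO replicate 1 or 2 of either time, FHT-1015 replicate 2 of 4 h, or FHT-1015 replicate 1 or 3 of 24 h. At 4 h in 92-1 DUSP14 stood at -0.05, and in MEL202 at -0.07 at 4 h and 0.14 at 24 h, none of which passed. Its response differed among the 3 lines at 24 h (edgeR adjusted p = 0.000114). With IDE196 the DUSP14 values were -0.35 and -0.31 at 4 and 24 h, with edgeR adjusted p of 0.0988 and 0.0643. DUSP14 passed at both times with no filter on low counts (0.0437 and 0.0455) and at 24 h with the 6 compared samples fitted alone (0.044).

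The change of a drug's effect from 4 to 24 h was tested for each experiment. With FHT-1015 it passed for 9 members in 92-1 (45.5 percent of all genes), 3 in MEL202 (6.89 percent) and 6 in MP41 (18.6 percent), and with IDE196 for 2, DUSP1 and DUSP6 (30.7 percent). DUSP7 was the only member called in each line, by -1.17 ± 0.14 in 92-1 (edgeR adjusted p = 6.68e-06), -1.29 ± 0.32 in MEL202 (edgeR adjusted p = 0.0293) and -1.69 ± 0.27 in MP41 (edgeR adjusted p = 0.000946). The MEL202 value failed in 5 of the 12 leave-one-out fits, those without DMSO replicate 2 or 3 or any FHT-1015 replicate of 24 h. In MEL202 the DUSP10 effect went from -1.46 to 0.99, a change of 2.45 ± 0.49 (edgeR adjusted p = 0.00878).

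The 2 drugs were set against each other in 92-1, each relative to its own DMSO. At 4 h their effects differed for 7 members (24.6 percent of all genes), and at 24 h for 8 (33 percent). The largest difference was that of DUSP6 at 24 h, where FHT-1015 stood above IDE196 by 4.1 ± 0.26 on the log2 scale (edgeR adjusted p = 1.58e-12), or 3.89 with the sum of both strands. For DUSP1 it stood above by 2.02 ± 0.19 (edgeR adjusted p = 2.6e-09). DUSP1 and DUSP6 were called higher with FHT-1015 and lower with IDE196 at 24 h, as were 2.46 percent of the genes tested in both experiments. DUSP2, DUSP4, DUSP5 and DUSP7 were called lower with both drugs (20.1 percent of genes) and DUSP10 and DUSP16 higher with both (15.7 percent).

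Within those shared directions the sizes differed for 5 of the 6 members, the exception being DUSP2, given above. DUSP4 and DUSP7 fell further with FHT-1015 than with IDE196 at 24 h, by -1.26 ± 0.17 (edgeR adjusted p = 1.06e-06) and -0.63 ± 0.15 (edgeR adjusted p = 0.00209). DUSP5 fell further with IDE196 (0.77 ± 0.22, edgeR adjusted p = 0.00791), DUSP10 rose further with FHT-1015 (2.05 ± 0.43, edgeR adjusted p = 0.000422) and DUSP16 rose further with IDE196 (-0.71 ± 0.17, edgeR adjusted p = 0.0021). The treated means of DUSP5 were alike, at 4.45 CPM with FHT-1015 and 4.54 CPM with IDE196, whereas the DMSO means were 9.05 and 15.5 CPM. Its difference thus lay in the DMSO sets, and drug and library set cannot be told apart. At 4 h DUSP4 and DUSP7 were called lower with both drugs (2.28 percent of genes). The DUSP4 difference of -0.16 had a 95% interval from -0.5 to 0.19, whereas DUSP7 fell further with IDE196 (0.79 ± 0.15, edgeR adjusted p = 0.000182). DUSP16 was at that time called lower with FHT-1015 and higher with IDE196, as were 2.26 percent of genes, and 0 members were called higher with both (1 percent) or higher with FHT-1015 and lower with IDE196 (2.07 percent). At 24 h 0 members were called lower with FHT-1015 and higher with IDE196, where 4.63 percent of genes were.

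**Figure D5:**
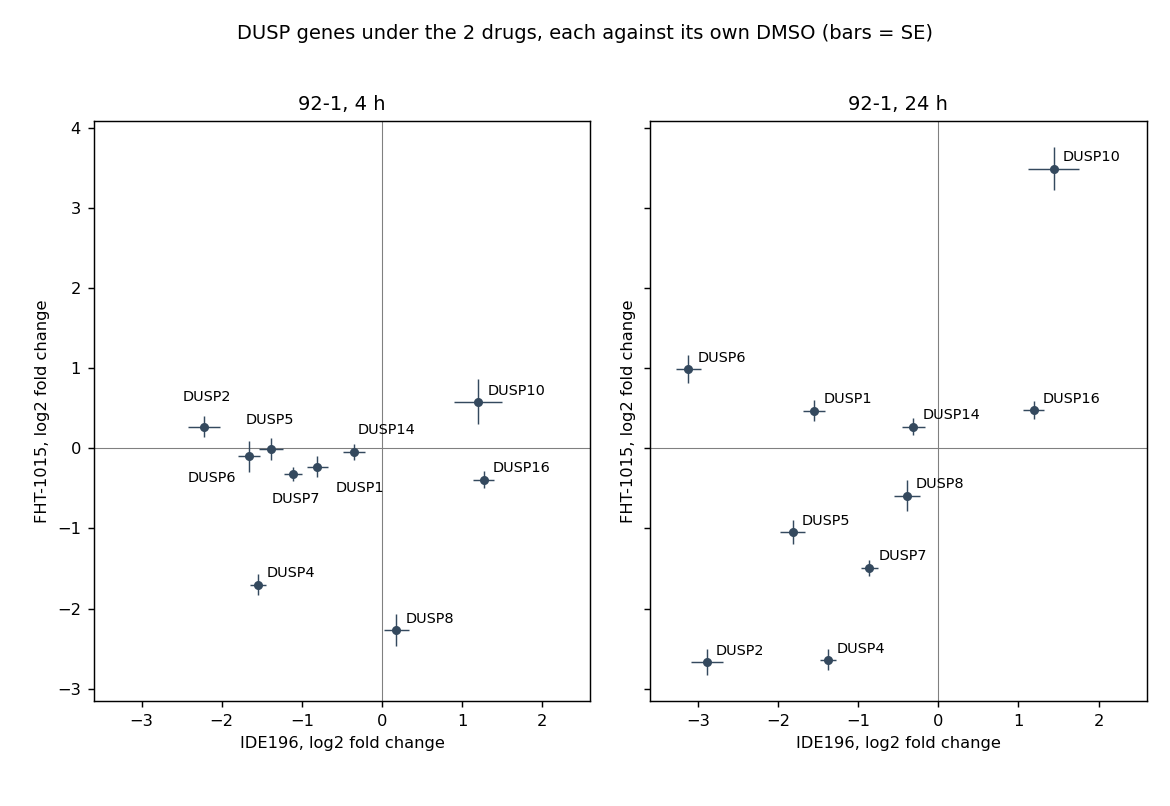
Log2 fold change with FHT-1015 (vertical axis) against that with IDE196 (horizontal axis) in 92-1 at 4 h (left) and 24 h (right), each against its own DMSO. Points are the DUSP genes and bars are standard errors. At 24 h DUSP6 and DUSP1 lie at 0.99 and 0.47 with FHT-1015 and at -3.12 and -1.55 with IDE196.

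Added up per kilobase, the make-up of the 10 members shifted in each experiment. In 92-1 the sum went from 129 ± 8.98 CPM per kb in DMSO to 77.6 ± 4.97 (SD, n = 3) with FHT-1015 at 24 h, and the share of DUSP4 in it from 51.4 ± 2.98 to 13.9 ± 0.564 percent. In MP41 the sum was 119 ± 10.3 in DMSO and 143 ± 9.28 with the drug, while the share of DUSP4 went from 16.6 ± 2.14 to 1.15 ± 0.236 percent and that of DUSP6 from 14.2 ± 3.74 to 34.9 ± 2.51 percent. In MEL202 the sum was 118 ± 6.4 and 110 ± 8.54 and the DUSP4 share 34.5 ± 4.03 and 7.79 ± 0.718 percent. With IDE196 the sum went from 169 ± 5.39 to 96.6 ± 2.43, and DUSP4 kept 40 ± 1.36 percent of it, from 57.7 ± 1.24. These sums are descriptions, and for DUSP6 they use the unstranded column.

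Genes that ERK signalling switches on were read beside the phosphatases: PHLDA1, SPRY2, SPRY4, CCND1, EPHA2, EPHA4, ETV4 and ETV5, which are used with DUSP4 and DUSP6 as a score of MAP kinase pathway output. With IDE196 at 24 h, 8 of 8 fell, where 29.4 percent of all genes did, with a median log2 fold change of -2.88 (0.03 over all genes), and at 4 h 6 fell and 0 rose, where 9.3 percent of all genes fell (median -1.13, against 0.01). The largest fall at 24 h was that of SPRY4, a feedback inhibitor of the pathway, at -5.68 ± 0.14 (edgeR adjusted p = 9.73e-15). With FHT-1015 at 24 h, 1 of 7 tested rose and 3 fell in 92-1, 3 of 8 fell in MEL202 and 3 of 7 fell in MP41, where 60.6, 18.8 and 36.1 percent of all genes were called. The medians were -0.14, 0.2 and -0.12, against 0, -0.01 and 0.07 over all genes. The called rise in 92-1 was SPRY2 (0.72 ± 0.08, edgeR adjusted p = 8.79e-07). At 4 h 2 rose and 3 fell in 92-1, 1 rose and 0 fell in MEL202 and 0 rose and 1 fell in MP41, where 29.5, 0.679 and 0.225 percent of all genes were called, with medians of -0.22, -0.35 and -0.18. SPRY2 had the largest rise at 4 h in 92-1 (1.58 ± 0.08, edgeR adjusted p = 2.09e-09) and the 1 rise in MEL202 (0.89 ± 0.17, edgeR adjusted p = 0.0299), and the fall in MP41 was that of SPRY4 (-1.01 ± 0.15, edgeR adjusted p = 0.0108). The largest fall at 24 h in MEL202 and in MP41 was that of CCND1, which encodes cyclin D1, at -3.43 and -2.27.

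Of 20 MAP kinases and kinases above them, 8 rose and 4 fell with FHT-1015 at 24 h in 92-1, 5 rose and 2 fell of 19 tested in MEL202, and 5 rose and 3 fell in MP41. With IDE196 at 24 h 7 rose and 4 fell of 19 tested. Of all genes, 60.6, 18.8 and 36.1 percent were called with FHT-1015 in 92-1, MEL202 and MP41 and 58.1 percent with IDE196. The medians lay between -0.09 and 0.15. The largest fall with FHT-1015 at 24 h in 92-1 and MP41 was that of MAP2K3 (-1.38 and -1.33), and the largest rise in MEL202 and MP41 was that of MAP2K6 (1.53 and 1.09). Both kinases activate p38. In 92-1 the largest rise was that of MAP2K5 (1.13), the kinase above ERK5, which also led with IDE196 (1.47). DUSP9, the remaining cytoplasmic MAP kinase phosphatase, fell at 24 h by -1.5 ± 0.13 in 92-1 (edgeR adjusted p = 7.33e-08), -1.3 ± 0.25 in MEL202 (edgeR adjusted p = 0.00225), -1.29 ± 0.21 in MP41 (edgeR adjusted p = 0.000317) and -1.36 ± 0.11 with IDE196 (edgeR adjusted p = 1.25e-08). Of the 14 other dual-specificity phosphatase genes, 10 or 11 were tested in each experiment, and the number called at 24 h with FHT-1015 was 5 of 10 (92-1), 2 of 10 (MEL202) and 5 of 11 (MP41), beside the same shares of all genes, and 9 of 11 with IDE196, where 58.1 percent of all genes were called.

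Across the 48 samples, after the mean of each experiment was subtracted from log2 CPM, the members were compared in pairs. Pearson's r was highest, at 0.895 between DUSP2 and DUSP5 and 0.894 between DUSP4 and DUSP7. The other 4 pairs among these 4 genes had r from 0.772 to 0.793, DUSP1 and DUSP6 had 0.72, and the lowest was -0.624 between DUSP5 and DUSP16. The points share libraries, drugs and times, so these values only describe. Among 10217 protein-coding genes, those most like DUSP4 were FAM129B (r = 0.942), UBL4A (0.935) and ASB2 (0.927). Those most like DUSP5 were YRDC (0.92), TRAF4 (0.907) and FJX1 (0.891), and those most like DUSP6 were FMN2 (0.872), LZIC (0.863) and ETV1 (0.857).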

How the data were processed

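RNA-seq libraries of 48 samples, 3 per group, were compared. The authors deposited, per sample, read counts per gene in an unstranded and 2 stranded columns. The submitters' processing notes name hg38 and limma without a role, and the aligner and annotation release are not given in the sources used here. The unstranded count was used, because the first strand held 49.7 to 50.1 percent of stranded reads. Of reads, 9.35 to 11.8 percent were ambiguous between genes and are in no gene's count. The 92 spike-in entries held 0 reads and stayed out of library sizes. Symbols, positions and exon lengths came from GENCODE 29, which matched 58597 of 58870 identifiers without their version.

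Each experiment of 12 samples was fitted with edgeR 4.0.16 (R 4.3.3, limma 3.58.1) by trimmed mean of M values normalisation, filterByExpr and the quasi-likelihood test. Differences of FHT-1015 effects among lines used a fit of its 36 samples, an F-test over the lines, and differences between drugs a fit of the 24 samples of 92-1. P-values were adjusted over all genes tested. Standard errors were derived from the test, as the absolute log2 fold change over the square root of the F statistic. The 95% intervals were built from these standard errors. The labels call replicates biological but do not tell what separates them. Reads were not counted as unique molecules, so counts are not independent molecules. Members, gene lists and alternatives were chosen with earlier results of these data known. By rule all 10 members may be named in any comparison, and the text prints part of their values. Of each other list, the called gene with the largest rise or fall may be named, and DUSP9 always. The 3 genes most like DUSP4, DUSP5 and DUSP6 had a mean of at least 5 CPM and were tested in all 4 experiments. Promoter sequences came from RefSeq (GRCh38.p14).

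Alternatives were relative log expression factors, no filter, DESeq2 1.42.0, the sum of both stranded columns, only the samples compared, a replicate block, and leaving out each library. Tested on simulated data at 4 h, a log2 change of 1 was recovered for 98 percent of changed genes in the FHT-1015 experiment of 92-1 (15685 genes), 29 percent in MEL202 (15913), 57 percent in MP41 (15543) and 92 percent with IDE196 (15437). In the simulation every gene of an experiment had the same biological coefficient of variation, and changed genes were drawn above a floor of expected counts. These shares are therefore not those of single members, whose spread and counts differ.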

Additional observations from a re-analysis of the deposited data

Results flagged for a closer look

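The effect of a drug differed between 4 and 24 h for the genes that follow, by the edgeR interaction test, with the adjusted p in brackets. With FHT-1015 in 92-1 these were DUSP1 (0.00631), DUSP2 (5.65e-08), DUSP4 (0.000472), DUSP5 (0.000752), DUSP6 (0.00335), DUSP7 (6.68e-06), DUSP8 (0.000128), DUSP10 (2.95e-05) and DUSP16 (0.000224). In MEL202 they were DUSP1 (0.00551), DUSP7 (0.0293) and DUSP10 (0.00878). In MP41 they were DUSP2 (4.66e-06), DUSP4 (1.07e-05), DUSP5 (0.0199), DUSP6 (0.00107), DUSP7 (0.000946) and DUSP14 (0.00497), of which DUSP5 was lost without DMSO replicate 1 (0.0545) or replicate 3 (0.0592) of 4 h or FHT-1015 replicate 3 of 24 h (0.0517). With IDE196 in 92-1 they were DUSP1 (0.00585) and DUSP6 (5.88e-05).

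The FHT-1015 effect differed among the 3 lines, by the edgeR F-test, at 4 h for DUSP4 (0.0128) and DUSP10 (0.00759). DUSP8 just missed at 4 h (0.0506). At 24 h it differed for DUSP1 (0.0161), DUSP2 (2.06e-09), DUSP4 (0.00106), DUSP6 (0.0297), DUSP10 (6.18e-08) and DUSP14 (0.000114), again with adjusted p in brackets.

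The effects of FHT-1015 and IDE196 in 92-1 differed, by the edgeR test of their difference, at 4 h for DUSP1 (0.023), DUSP2 (2.18e-08), DUSP5 (1.3e-05), DUSP6 (2.87e-05), DUSP7 (0.000182), DUSP8 (1.17e-07) and DUSP16 (5.08e-08). The DUSP1 difference at 4 h was lost with no filter on low counts (0.0539) and without DMSO replicate 1 (0.0738) or FHT-1015 replicate 3 (0.0737) of the FHT-1015 experiment, or DMSO replicate 5 (0.0507) or IDE196 replicate 2 (0.0514). At 24 h they differed for DUSP1 (2.6e-09), DUSP4 (1.06e-06), DUSP5 (0.00791), DUSP6 (1.58e-12), DUSP7 (0.00209), DUSP10 (0.000422), DUSP14 (0.0168) and DUSP16 (0.0021). The DUSP14 difference at 24 h was lost without DMSO replicate 6 of the IDE196 experiment (0.0559). The 2 drugs were run with separate DMSO sets, and drug and library set cannot be told apart.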

How the results depend on the processing

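Of 152 results, 116 passed the test, and none of these changed sign under any alternative run. Leaving out a library is counted apart: 11 passing results were lost in at least 1 of the other alternatives (21 values) and 22 in at least 1 fit without a library (122 values). Counts of members called moved by over 1.5 times in 3 comparisons under alternatives other than leaving out a library. In MEL202 with FHT-1015 at 4 h, 1 became 2 without a filter, 2 with DESeq2 and 0 with only the samples compared. In MP41 with FHT-1015 at 4 h, 1 became 2 with DESeq2 and 3 with only the samples compared. The count of MP41 DMSO between the times, 2, became 1 without a filter, 1 with the sum of both strands, 1 with the replicate block and 0 with only the samples compared. Without 1 library, the counts ran from 2 to 4 in 92-1 with FHT-1015 at 4 h, 0 to 2 in MEL202 and 0 to 2 in MP41 at 4 h, 0 to 3 in MP41 DMSO and 1 to 3 for the differences among lines at 4 h. Smaller moves under the other alternatives included those from 8 to 10 with IDE196 at 24 h (no filter, and only the samples compared), from 8 to between 6 and 9 in MP41 with FHT-1015 at 24 h, from 2 to 3 among lines at 4 h (gaining DUSP8 with no filter, DESeq2, the sum of both strands and the replicate block), from 6 to 8 among lines at 24 h (DESeq2) and from 8 to 6 for MP41 against 92-1 (no filter, DESeq2). The cause was not tested.

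Counts of all genes called, which give the background shares, moved by over 1.5 times in 12 of 24 comparisons. With FHT-1015 at 4 h, the 108 of MEL202 were 207 without a filter, and fell to 34 or 28 without FHT-1015 replicate 1 or 3 of that time, and to 61 to 67 without DMSO replicate 1 of 4 h, DMSO replicate 3 of 24 h or FHT-1015 replicate 2 or 3 of 24 h. The 35 of MP41 were 122 without a filter, 7 to 20 without any 1 of the 6 compared libraries, and 141 and 113 without DMSO replicates 2 and 3 of 24 h. In MEL202 at 24 h, 2984 became 1810 to 1921 without DMSO replicate 1 or 3 or any FHT-1015 replicate of 24 h. The change of the effect between times, 1097 in MEL202, was 1704 with DESeq2 and 515 to 712 without DMSO replicate 1 or 3 of 24 h, FHT-1015 replicate 1 of 4 h or any FHT-1015 replicate of 24 h, and the 2890 of MP41 were 5815 without DMSO replicate 3 of 24 h. Differences among lines were 253 at 4 h, against 470 with DESeq2, 161 without 92-1 DMSO replicate 2 and 144 without its FHT-1015 replicate 2, and 2211 at 24 h, against 3998 without MP41 DMSO replicate 3. For DMSO between the times, the 403 of MP41 were 1733 with DESeq2, 2505 without a filter and 0 with edgeR on the compared samples alone (2590 at an unadjusted p under 0.05), and 126 to 186 without FHT-1015 replicate 2 or 3 of either time. The 54 of 92-1 in the FHT-1015 experiment were 150 with DESeq2, 243 without a filter, 101 with the replicate block and 16 to 81 without 1 library, the 41 of the IDE196 experiment were 266, 498, 24 (samples alone) and 4 to 50, and the 0 of MEL202 with edgeR (330 at an unadjusted p under 0.05) were 0 with DESeq2 and 4 without a filter.

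Values near 0 that did not pass turned sign. DUSP5 in 92-1 with FHT-1015 at 4 h went from -0.01 to 0.01 without a filter, and DUSP7 in MP41 at 4 h was 0.00 with relative log expression factors, DESeq2 and only the samples compared. Without 1 library the 4 h ranges were -0.12 to 0.07 for DUSP5 and -0.15 to 0.01 for DUSP14 in 92-1, and -0.10 to 0.06 for DUSP7 in MP41. In MEL202 at 4 h they were -0.08 to 0.24 for DUSP2, -0.42 to 0.06 for DUSP6, -0.41 to 0.01 for DUSP7, -0.15 to 0.08 for DUSP14 and -0.19 to 0.11 for DUSP16, and DUSP16 at 24 h ran from -0.03 to 0.36.

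The numbers were to be taken as pairs only if same-numbered samples deviated together with r over 0.1 in every pair. That held in 8 of 18 pairs, with r from -0.43 to 0.62, so they were not. Separately, 12 of 18 correlated best with their own number, among them all 6 in MP41, which is a hint of pairing from the data and not from the design. With the replicate block, members called were 4 (4 h) and 10 (24 h) in 92-1, 1 and 4 in MEL202, and 1 and 7 in MP41, where DUSP8 at 24 h was lost (edgeR adjusted p = 0.0502). Differences among lines were called for 3 members at 4 h and 7 at 24 h. The IDE196 and DMSO samples share no replicate numbers, so no paired fit was made there. Depth limits DUSP10 most, at 8 to 370 reads per library, and the spread between replicates limits MEL202.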
